A study of Homo sapiens with 6 samples.

Results

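Transcripts of 53 proteins that process ribosomal RNA and assemble preribosomes were followed in H2452 cells, an established pleural mesothelioma (PM) line, with and without knockout of *NF2*. The members, 53 of the 58735 genes in the deposited gene table, are the rows whose symbol is on a list. The list holds small subunit processome, box C/D and box H/ACA ribonucleoprotein and large subunit assembly factors. It was chosen with earlier results of these data known. The series holds 3 libraries of cells carrying a scrambled sgRNA (sgCtrl), labelled wild type, and 3 of cells carrying the sgRNA sg*NF2*-1, labelled *NF2* knockout. The lentiviral system of the study drives the sgRNA from the U6 promoter and Cas9 with mCherry from the SFFV promoter, and whether the scrambled control carried the same Cas9 vector is not spelled out. Only this line and 1 of the study's guides were sequenced, as stably infected populations with no cloning step described, and cells were grown in RPMI-1640 with fetal bovine serum. The study states for its experiments in general that data are biological replicates. The titles number the libraries within each group without saying whether they came from separate cultures. The p-values below therefore set the difference between the groups against the spread between these libraries. Loss of *NF2* and any other difference between the infected populations cannot be told apart in this design.

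A ribosome begins as a long precursor RNA made by RNA polymerase I in the nucleolus. The small subunit processome, built from the UTP-A and UTP-B complexes, the U3 ribonucleoprotein and further factors, folds and cuts the part of the precursor that becomes the small subunit, while box C/D and box H/ACA ribonucleoproteins methylate and pseudouridylate the RNA at sites set by their guide RNAs. Other factors, among them the BOP1, PES1 and WDR12 complex (PeBoW), mature the large subunit, and growing tumor cells depend on this machinery to keep up protein synthesis.

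Between 14782423 and 17416463 reads were counted in each library. The targeted gene, *NF2*, had between 1025 and 1197 counts in the sgCtrl libraries and between 590 and 802 in the sg*NF2*-1 libraries, a log2 fold change of -0.69 ± 0.10 (SE, adjusted p = 7.9e-06, edgeR), so its RNA was reduced but present. Of the 11 mesothelial markers checked, 9 had at least 10 counts in every library, and *KRT5* and *LRRN4* did not. The mesothelial markers summed to between 3480.3 and 3925 CPM (the count scaled to the library total, after TMM) in sgCtrl. In sg*NF2*-1 they summed to between 3372 and 4132 CPM. *KRT8* held the largest part of the sum, with a mean of 1961 CPM in sgCtrl. Single markers moved both ways, with 3 called higher and 3 lower. The log2 fold change was 1.20 for *KRT7*, 0.66 for *MSLN* and 0.28 for *KRT18*. It was -1.28 for *PDPN*, -1.04 for *WT1* and -0.94 for *KRT19*. The summed level of the 5 blood cell markers was at most 0.508 CPM, and the 3 lung epithelium markers were at 0 in all libraries. The 3 endothelial markers summed to between 6.19 and 8.53 CPM in sgCtrl and between 1.93 and 3.24 CPM in sg*NF2*-1, a difference that was led by *PECAM1* and whose part in the results below was not tested.

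Transcripts of most of the assembly factors rose in *NF2*-deficient cells, and none was called lower. Protein was not measured in these libraries, and the label-free proteomics that the study ran on both H2452 populations was not used here. Of the 53 members, 52 had enough counts to be tested, with at least 114 counts in every library. At a Benjamini-Hochberg adjusted p under 0.05 in edgeR's quasi-likelihood test over 14179 genes, 42 of the 52 rose, where the share of all tested genes called higher was 17.7%. None of the 52 was called lower, against 16.6% of all tested genes. The 10 members that were not called had log2 fold changes between -0.10 and 0.23. At the limits used by the study (p under 0.05 with a log2 fold change past 0.5 in either direction), 25 members were higher and 0 lower, against 9.22% and 10.8% of all tested genes.

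The size of the change was moderate. The median log2 fold change of the 52 tested members was 0.47, with an interquartile range from 0.33 to 0.66, and that of all tested genes was -0.00. The lowest value was that of *UTP3* (-0.10) and the highest that of *NLE1* (1.22), and 51 of the 52 values were above 0. For 45 members every sg*NF2*-1 library lay above every sgCtrl library in CPM, which held for 23.2% of all tested genes, and for no member did every sg*NF2*-1 library lie below, which held for 22.2%. CPM is a share of the RNA sequenced, so more transcript per cell and less of other RNA per cell cannot be told apart in these libraries, nor can a change in every cell and a change in some cells.

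**Figure D1:**
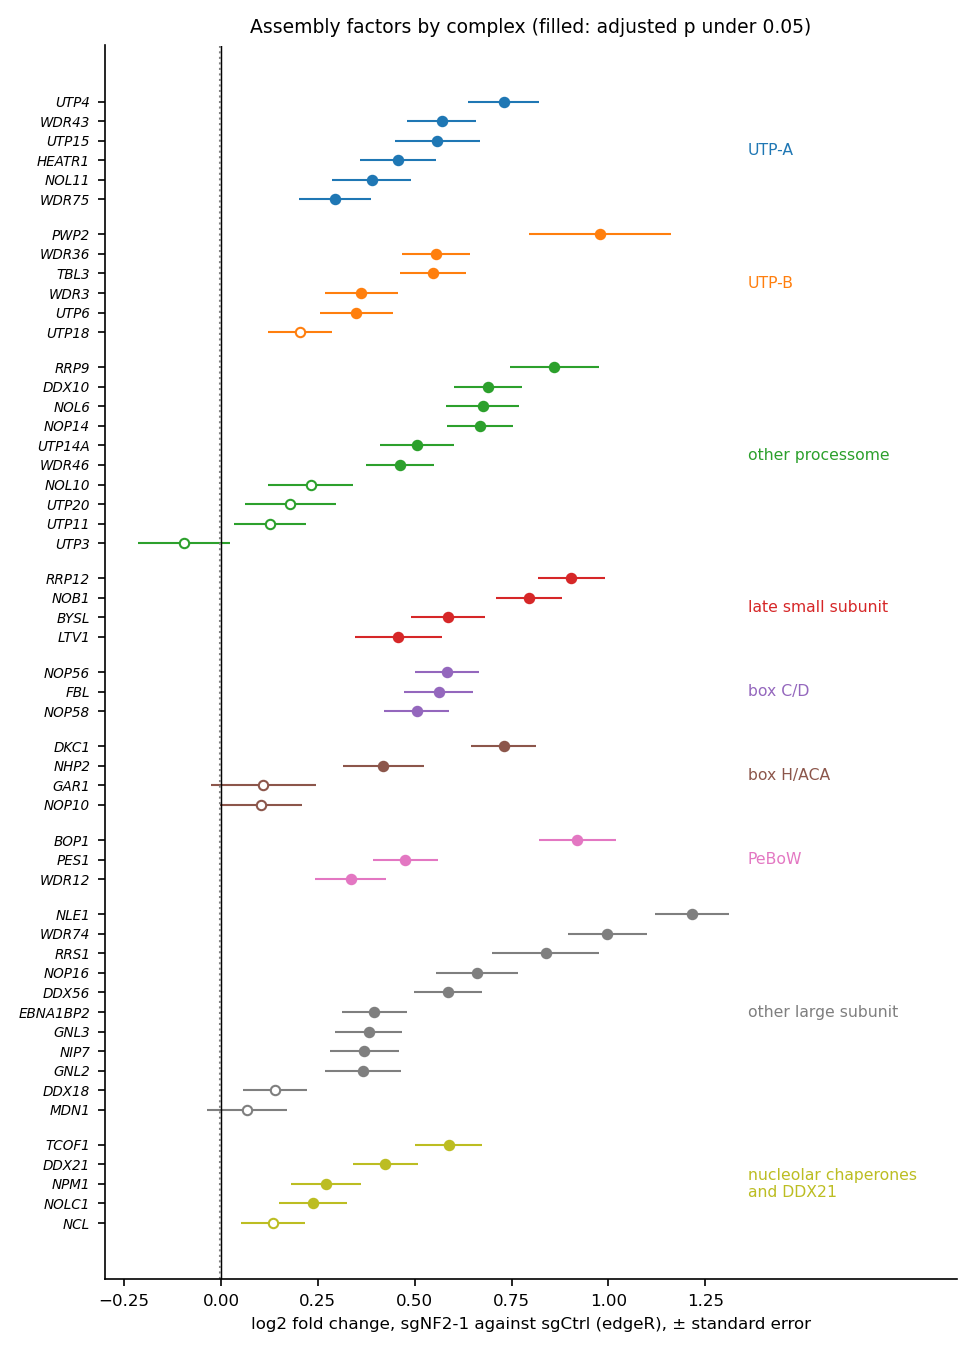
Log2 fold change of each tested assembly factor (horizontal axis, sgNF2-1 against sgCtrl, edgeR), grouped by complex, with bars of 1 standard error. Filled points passed an adjusted p of 0.05; 51 of the 52 points lie to the right of 0, and the dotted line is the median of all tested genes.

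The libraries of each group resembled each other. For each library, the log2 CPM of every member was set against that member's mean over the sgCtrl libraries. The median of these differences was 0.01, -0.05 and 0.04 in sgCtrl replicates 1 to 3 and 0.48, 0.48 and 0.51 in sg*NF2*-1 replicates 1 to 3. All 3 sg*NF2*-1 medians therefore lay well above all 3 sgCtrl medians, while the same medians over all tested genes were within 0.01 of 0 in every library. The members together took 0.441%, 0.417% and 0.437% of the counts in sgCtrl and 0.569%, 0.563% and 0.561% in sg*NF2*-1.

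**Figure D2:**
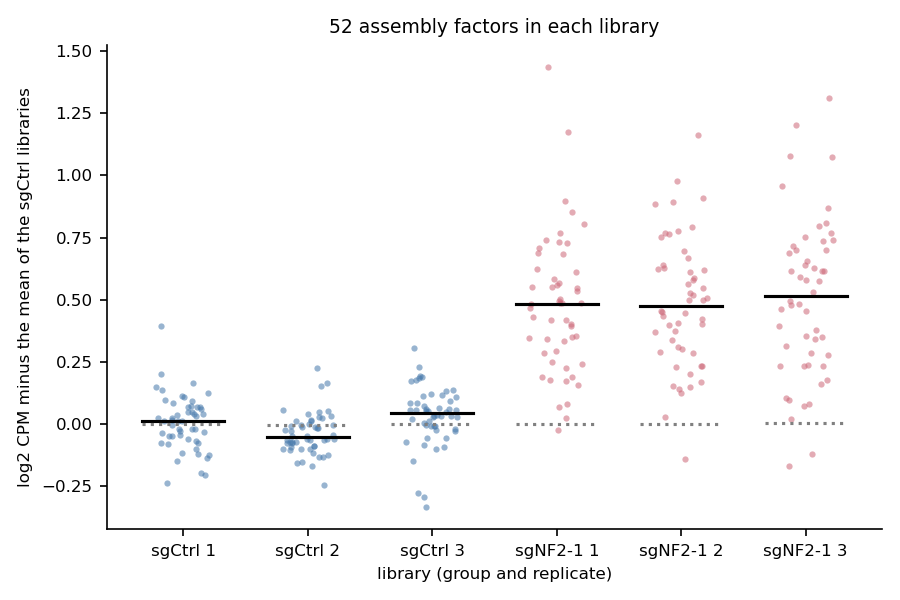
Each point is the log2 CPM of 1 of 52 assembly factors in 1 library minus its mean over the 3 sgCtrl libraries (vertical axis). Solid lines are the medians of the members, from -0.05 to 0.04 in sgCtrl and from 0.48 to 0.51 in sgNF2-1, and dotted lines are the medians of all tested genes.

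The promoters of the members were read from RefSeq (GRCh38.p14), in windows from 250 bases before to 50 bases after the annotated start, and 45 of the 53 members matched by symbol. The canonical E-box, CACGTG, which is the site bound by MYC and other helix-loop-helix proteins, was in a window of 23 of the 45 members (51.1%). It was in 12.7% of the 10042 tested genes that have a window and in 8.77% of all 27305 genes that have one. The ETS-type motif CCGGAAG, on either strand, was in 18 of the 45 members (40.0%), against 22.8% of tested genes and 12.2% of all genes. The TEAD motif GGAATG, on either strand, was in 7 of the 45 (15.6%), against 14.99% of tested genes and 16.7% of all genes. The NRF1 core GCATGCGC, on either strand, was in 4 of the 45 (8.89%), against 6.52% and 3.68%. Both the E-box and the ETS motif were found in 11 members, but in *DDX21* and *GAR1* they lay in different windows of the gene. The share of other genes that hold both was not counted. These are matches of letters and not sites shown to be bound.

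Most E-boxes lay close to the start. Of the 27 E-boxes in the 23 genes, 22 (81.5%) began within 50 bases of the annotated start and 17 began after it. Of the 1563 E-boxes in windows of tested genes, 38.1% began within 50 bases and 156 began after the start. An E-box that lies in 2 windows of a gene is counted in each. The 22 tested members with an E-box had a median log2 fold change of 0.47 and the 22 without had a median of 0.44, so the medians of members with and without the motif were close.

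The promoters of 6 of the 10 members with the largest rise are given from 150 bases before to 30 bases after the start, 5′ to 3′ on the strand of the gene, to let the position of these motifs be seen. Capitals mark the E-box in *NLE1*, *PWP2*, *RRP9* and *UTP4*, the ETS-type motif in *WDR74* (the first of its 2 windows) and, in *NOB1*, 2 runs in which the NRF1 core overlaps its own reverse complement. ETS-type motifs in the promoters marked for the E-box are left in lower case.
NLE1, chr17:35142274-35142453, minus strand: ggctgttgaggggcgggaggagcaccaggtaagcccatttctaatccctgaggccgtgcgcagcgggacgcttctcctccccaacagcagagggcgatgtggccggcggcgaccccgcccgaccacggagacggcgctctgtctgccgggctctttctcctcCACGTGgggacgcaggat
WDR74, chr11:62839561-62839740, minus strand: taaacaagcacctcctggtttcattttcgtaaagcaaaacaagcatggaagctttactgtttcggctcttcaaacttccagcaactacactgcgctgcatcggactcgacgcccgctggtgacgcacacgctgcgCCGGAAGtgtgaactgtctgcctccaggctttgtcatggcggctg
PWP2, chr21:44107249-44107428, plus strand: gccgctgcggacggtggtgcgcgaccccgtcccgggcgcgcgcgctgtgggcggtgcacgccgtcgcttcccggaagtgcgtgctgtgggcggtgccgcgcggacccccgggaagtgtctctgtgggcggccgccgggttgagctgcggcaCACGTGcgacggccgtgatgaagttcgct
RRP9, chr3:51941875-51942054, minus strand: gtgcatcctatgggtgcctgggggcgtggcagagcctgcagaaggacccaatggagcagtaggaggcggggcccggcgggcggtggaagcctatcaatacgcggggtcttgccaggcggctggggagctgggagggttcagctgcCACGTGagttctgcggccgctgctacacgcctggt
NOB1, chr16:69754897-69755076, minus strand: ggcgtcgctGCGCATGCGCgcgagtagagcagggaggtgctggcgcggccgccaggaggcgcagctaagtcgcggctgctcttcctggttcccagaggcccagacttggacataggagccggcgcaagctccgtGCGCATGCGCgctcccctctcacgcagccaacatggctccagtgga
UTP4, chr16:69132499-69132678, plus strand: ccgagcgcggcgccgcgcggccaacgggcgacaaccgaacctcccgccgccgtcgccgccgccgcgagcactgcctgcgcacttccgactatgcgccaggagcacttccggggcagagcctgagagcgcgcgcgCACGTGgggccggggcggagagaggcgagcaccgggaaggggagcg

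The 2 largest rises were in factors of the large subunit. *NLE1* (ENSG00000073536, chromosome 17, 35128753 to 35142315), a WD-repeat protein that the ATPase MDN1 strips from the maturing large subunit, stood at 30.1, 27.5 and 30.2 CPM in sgCtrl and at 66.1, 65.4 and 72.6 CPM in sg*NF2*-1. Its mean rose from 29.3 ± 1.52 to 68.0 ± 3.96 CPM (SD, n = 3), a log2 fold change of 1.22 ± 0.10 (SE, adjusted p = 4.1e-10, edgeR), and the groups were far apart. *WDR74* (ENSG00000133316, chromosome 11, 62832342 to 62841809), a cofactor of the remodelling of large subunit precursors, stood at 37.2, 33.6 and 40.0 CPM against 68.7, 68.0 and 84.7 CPM. It rose by a log2 fold change of 1.00 ± 0.10 (SE, adjusted p = 3.7e-08, edgeR), with its highest value in sg*NF2*-1 replicate 3. *RRS1*, which helps to bring the RNA of the central protuberance into the large subunit, stood at 10.3, 11.5 and 14.96 CPM against 20.6, 23.8 and 21.2 CPM, a log2 fold change of 0.84 ± 0.14 (SE, adjusted p = 3.7e-05, edgeR), and the groups did not overlap.

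Of the 12 other large subunit genes, 11 were tested and 9 were called higher, against 17.7% of all tested genes, with a median log2 fold change of 0.40. Besides the 3 above, these were *NOP16* (0.66), the RNA helicase gene *DDX56* (0.59), *EBNA1BP2* (0.40), the nucleolar GTPase genes *GNL3*, which encodes nucleostemin (0.38), and *GNL2* (0.37), and *NIP7* (0.37). Of the exonic bases of *NIP7*, 20.2% lie opposite those of *COG8*, which had a mean of 500.2 counts, against 867.5 for *NIP7*. Not called were the helicase gene *DDX18* (0.14, adjusted p = 0.21, edgeR) and *MDN1*, which encodes the ATPase that acts on NLE1 (0.07, adjusted p = 0.65, edgeR). *MDN1* stood at 43.0, 50.6 and 42.0 CPM in sgCtrl and at 51.4, 49.2 and 41.5 CPM in sg*NF2*-1, so its groups overlapped. Over fits that each omit 1 library, the log2 fold change lay between 0.0083 and 0.16 for *MDN1* and between 0.10 and 0.21 for *DDX18*, not called in either. As a per-length ratio, *NLE1* to *MDN1* moved by 1.15 on the log2 scale between the groups, without overlap. The two-sided exact permutation p over libraries was 0.10, the lowest value possible with 3 against 3, and 0.20 after Benjamini-Hochberg adjustment over 10 pairs. This pair was chosen after the values were seen. It sets the member with the largest rise against 1 that was not called, so the shift follows from that choice.

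*NOP2*, which encodes a methyltransferase of the large subunit RNA, is the only member that could not be tested. It had 7 to 11 counts per library and a mean of 0.111 ± 0.0157 FPKM in sgCtrl (SD, n = 3; FPKM is the count scaled by gene length and by the depth of the library), the lowest of the 53. It was at 0.571, 0.609 and 0.461 CPM in sgCtrl and 0.568, 0.583 and 0.772 CPM in sg*NF2*-1, so no difference was detectable at this depth. In GENCODE release 29, 54.4% of its exonic bases (chromosome 12, 6556863 to 6568691) also belong to AC006064.6, a gene on the same strand that was listed with 0 counts, and no other member shared more than 50% of its exons. The part of this overlap in the low count was not tested.

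The PeBoW complex acts early on the large subunit precursor, and all 3 of its transcripts rose, by unequal amounts. All 3 were called higher, against 17.7% of all tested genes. *BOP1* stood at 58.9, 46.7 and 48.7 CPM in sgCtrl and 89.4, 95.0 and 108 CPM in sg*NF2*-1, a log2 fold change of 0.92 ± 0.10 (SE, adjusted p = 7.7e-08, edgeR). *PES1* stood at 137, 129.6 and 135 CPM against 170.4, 184 and 206 CPM, a log2 fold change of 0.48 ± 0.08 (SE, adjusted p = 9.2e-05, edgeR). *WDR12* stood at 42.4, 44.5 and 47.5 CPM against 54.8, 56.7 and 58.1 CPM, a log2 fold change of 0.33 ± 0.09 (SE, adjusted p = 0.0058, edgeR). In none of the 3 genes did the groups overlap. Per gene length, *BOP1* went from 13.1 ± 1.67 to 24.6 ± 2.33 FPKM (SD, n = 3), *PES1* from 27.9 ± 0.801 to 38.4 ± 3.63 FPKM and *WDR12* from 4.67 ± 0.261 to 5.84 ± 0.170 FPKM.

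Ratios of the levels of complex partners were compared for 10 pairs, which were chosen after the values were seen. The per-length ratio of *BOP1* to *WDR12* moved by 0.59 and that of *BOP1* to *PES1* by 0.45 on the log2 scale, both without overlap between the groups, and that of *PES1* to *WDR12* by 0.14, with overlap. The exact permutation p was 0.10 for the first 2 (0.20 after Benjamini-Hochberg adjustment over the 10 pairs) and 0.20 for the third (0.29 adjusted), so none of them can pass 0.05 in this design.

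Transcripts of the box C/D proteins, which carry out the methylation of ribosomal RNA, rose together. *FBL*, which encodes the methyltransferase fibrillarin, stood at 67.0, 60.9 and 68.8 CPM in sgCtrl and at 91.7, 92.5 and 106 CPM in sg*NF2*-1, a log2 fold change of 0.56 ± 0.09 (SE, adjusted p = 2.3e-05, edgeR). Its core partners moved with it. *NOP56* stood at 114, 128 and 129 CPM against 179, 182 and 194 CPM (log2 fold change 0.58, adjusted p = 4.6e-06, edgeR) and *NOP58* at 62.0, 58.3 and 62.5 CPM against 85.5, 89.0 and 85.1 CPM (0.51, adjusted p = 4.2e-05, edgeR). All 3 pairwise ratios of these genes moved by between 0.02 and 0.08 on the log2 scale, with overlapping groups and exact permutation p-values from 0.50 to 0.90 before adjustment.

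Transcripts of the box H/ACA proteins, which carry out pseudouridylation, did not all move. *DKC1*, which encodes the pseudouridine synthase dyskerin, stood at 86.7, 75.3 and 78.6 CPM in sgCtrl and at 131, 135 and 133 CPM in sg*NF2*-1, a log2 fold change of 0.73 ± 0.08 (SE, adjusted p = 2.0e-07, edgeR). *NHP2* stood at 49.996, 48.0 and 50.5 CPM against 58.8, 60.3 and 79.8 CPM, a log2 fold change of 0.42 ± 0.10 (SE, adjusted p = 0.0029, edgeR). Its groups did not overlap, but its highest value was in sg*NF2*-1 replicate 3, and without that library the log2 fold change was 0.27 (adjusted p = 0.028, edgeR). Of its exonic bases, 27.4% lie opposite those of *RMND5B*, which had a mean of 379 counts.

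The transcripts of the other core proteins of the complex gave no call. *NOP10* stood at 66.6, 75.5 and 89.9 CPM against 75.6, 78.3 and 95.4 CPM (log2 fold change 0.10 ± 0.10, SE, adjusted p = 0.48, edgeR), and *GAR1* at 16.6, 16.8 and 12.3 CPM against 15.9, 17.7 and 15.9 CPM (0.11 ± 0.14, SE, adjusted p = 0.57, edgeR). In both genes the groups overlapped, and the SD of the sgCtrl libraries was larger than the difference between the group means. The fold change of *NOP10* was -0.00 without sg*NF2*-1 replicate 3 and that of *GAR1* was -0.02 without sgCtrl replicate 3. The per-length ratio of *DKC1* to *NOP10* moved by 0.62 and that of *DKC1* to *GAR1* by 0.61 on the log2 scale, without overlap between the groups (exact permutation p = 0.10 for each, 0.20 adjusted over the 10 pairs), while *DKC1* to *NHP2* moved by 0.32 with overlap.

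Levels per gene length differed more between these 4 genes than between the groups. The length used is that of all annotated exonic bases, 554 for *NOP10* and 2046 for *GAR1*. Differences in FPKM between genes therefore also depend on the annotation. In CPM, the sgCtrl means were 77.3 for *NOP10*, 49.5 for *NHP2*, 80.2 for *DKC1* and 15.3 for *GAR1*. In sgCtrl, *NOP10* was at 132 ± 19.9 FPKM, *NHP2* at 31.1 ± 0.776 FPKM, *DKC1* at 18.1 ± 1.31 FPKM and *GAR1* at 7.07 ± 1.19 FPKM (SD, n = 3). In sg*NF2*-1 the order was the same, with *NOP10* at 141 ± 18.0, *NHP2* at 41.2 ± 7.21, *DKC1* at 29.7 ± 0.514 and *GAR1* at 7.56 ± 0.503 FPKM. The box C/D genes lay closer together in sgCtrl, at 28.6 ± 1.76 FPKM for *FBL*, 21.7 ± 1.505 for *NOP56* and 17.5 ± 0.636 for *NOP58*.

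**Figure D3:**
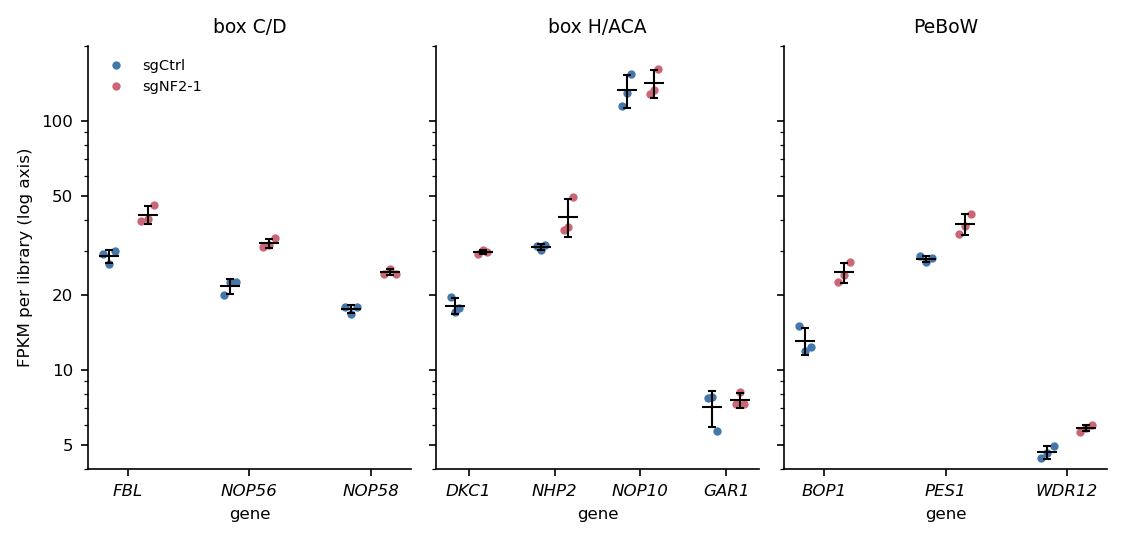
FPKM per library (vertical log axis) of the transcripts of the core proteins of 3 complexes in sgCtrl (blue) and sgNF2-1 (red), with bars for the mean ± SD of 3 libraries. The groups separate for all box C/D and PeBoW genes, for DKC1 and for NHP2, and overlap for NOP10 and GAR1.

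All 6 tested UTP-A genes were called higher, against 17.7% of all tested genes, with a median log2 fold change of 0.51. UTP-A is the first complex to bind the nascent precursor and in vertebrates is also needed for its transcription. *UTP4* (ENSG00000141076, chromosome 16, 69131291 to 69231130), a WD-repeat subunit, stood at 76.0, 87.2 and 99.4 CPM in sgCtrl and at 139.7, 151 and 145 CPM in sg*NF2*-1, a log2 fold change of 0.73 ± 0.09 (SE, adjusted p = 8.9e-07, edgeR) with no overlap. The values of the others were 0.57 for *WDR43*, 0.56 for *UTP15*, 0.46 for *HEATR1*, 0.39 for *NOL11* and 0.30 for *WDR75*. Of the exonic bases of *HEATR1*, 23.2% lie opposite those of *LGALS8*, which had a mean of 1082.8 counts, against 723.3 for *HEATR1*. The call of *WDR75* (adjusted p = 0.015, edgeR) was lost without sgCtrl replicate 2 (adjusted p = 0.12) and without sg*NF2*-1 replicate 1 (adjusted p = 0.11).

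Of the 6 UTP-B genes, 5 were called higher, against 17.7% of all tested genes, with a median of 0.45 over the 6. UTP-B joins UTP-A and the U3 ribonucleoprotein on the precursor. *PWP2* (ENSG00000241945, chromosome 21, 44107290 to 44131181), a scaffold of the complex, stood at 12.4, 9.08 and 7.51 CPM in sgCtrl and at 25.6, 15.03 and 16.4 CPM in sg*NF2*-1, a log2 fold change of 0.98 ± 0.18 (SE, adjusted p = 0.00018, edgeR). Its groups did not overlap, but its spread was wide, replicate 1 was highest in both groups, and its 114 to 450 counts per library make it the tested member with the lowest library count. *WDR36* (0.56), *TBL3* (0.55), *WDR3* (0.36) and *UTP6* (0.35) also rose. *UTP18* stood at 126, 111 and 126 CPM against 141, 134 and 142 CPM, without overlap, and its log2 fold change of 0.20 missed the threshold (adjusted p = 0.057, edgeR). *UTP18* passed with DESeq2 (adjusted p = 0.048) and without sgCtrl replicate 3 (adjusted p = 0.043, edgeR).

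Of the 10 other processome genes, 6 were called higher, against 17.7% of all tested genes, with a median of 0.48 over the 10. *RRP9* (ENSG00000114767, chromosome 3, 51933430 to 51941941), which encodes a protein of the U3 ribonucleoprotein, stood at 20.9, 23.7 and 24.3 CPM in sgCtrl and at 38.0, 39.0 and 48.3 CPM in sg*NF2*-1, a log2 fold change of 0.86 ± 0.11 (SE, adjusted p = 1.9e-06, edgeR). All its sg*NF2*-1 values were above its sgCtrl values. The other members that rose were the RNA helicase gene *DDX10* (0.69), *NOL6* (0.68), *NOP14* (0.67), *UTP14A* (0.51) and *WDR46* (0.46). *NOP14* shares 17.1% of its exonic bases with its antisense gene *NOP14-AS1*, which had a mean of 581.5 counts.

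Processome genes that were not called were *NOL10* (0.23, adjusted p = 0.11), *UTP20* (0.18, adjusted p = 0.25), *UTP11* (0.13, adjusted p = 0.31) and *UTP3* (-0.10, adjusted p = 0.57), all from edgeR. Over fits that each omit 1 library, these values moved between 0.12 and 0.31 for *NOL10*, 0.057 and 0.30 for *UTP20*, 0.076 and 0.16 for *UTP11* and -0.16 and -0.0095 for *UTP3*, and none was called. *UTP3*, the only member with a value below 0, stood at 24.3, 21.4 and 19.6 CPM in sgCtrl and at 22.05, 19.7 and 19.3 CPM in sg*NF2*-1. Its groups overlapped, as did those of *UTP20*.

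Late small subunit factors act on the particle on its way to the cytoplasm. The transcripts of all 4 were called higher, against 17.7% of all tested genes, with a median of 0.69. *RRP12* (ENSG00000052749, chromosome 10, 97356358 to 97426076), an export factor, stood at 57.9, 54.2 and 51.0 CPM in sgCtrl and at 98.0, 102 and 106 CPM in sg*NF2*-1, a log2 fold change of 0.90 ± 0.09 (SE, adjusted p = 1.1e-08, edgeR). *NOB1* (ENSG00000141101, chromosome 16, 69741867 to 69754940), which encodes the endonuclease that makes the last cut of the small subunit RNA, stood at 57.9, 55.7 and 60.6 CPM against 97.0, 99.4 and 106 CPM, a log2 fold change of 0.80 ± 0.08 (SE, adjusted p = 7.1e-08, edgeR). In both genes the groups were well apart, with little spread within either. *BYSL* (0.59) and *LTV1* (0.46), which encode further factors of late small subunit precursors, rose too.

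The 2 members with the most counts, *NPM1* and *NCL*, changed little. *NPM1*, which encodes the chaperone nucleophosmin, was the member with the highest level, at 216 ± 24.6 FPKM in sgCtrl (SD, n = 3). It stood at 858, 781 and 981 CPM in sgCtrl and at 1028, 1022 and 1111 CPM in sg*NF2*-1, a log2 fold change of 0.27 ± 0.09 (SE, adjusted p = 0.022, edgeR), and the call was lost without sgCtrl replicate 1, sgCtrl replicate 2 or sg*NF2*-1 replicate 3 (adjusted p from 0.059 to 0.18). The 45 pseudogenes named after *NPM1* in the table held 1.45% as many counts as *NPM1*. *NCL*, which encodes nucleolin, stood at 462, 403 and 408 CPM against 478, 470.4 and 448 CPM. Its groups overlapped, and its log2 fold change of 0.13 ± 0.08 (SE) was not called (adjusted p = 0.22, edgeR). Together *NPM1* and *NCL* held between 29.02% and 31.2% of the counts of all members in sgCtrl and between 26.4% and 26.8% in sg*NF2*-1.

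The transcripts of the remaining nucleolar proteins were called higher. *TCOF1*, which encodes treacle, a scaffold for transcription of the precursor, stood at 49.7, 49.9 and 47.1 CPM in sgCtrl and at 71.5, 73.5 and 75.6 CPM in sg*NF2*-1, a log2 fold change of 0.59 ± 0.09 (SE, adjusted p = 8.8e-06, edgeR) without overlap. *NOLC1*, which encodes a chaperone of ribonucleoproteins, stood at 126, 119 and 112 CPM against 136, 157 and 128 CPM, a log2 fold change of 0.24 ± 0.09 (SE, adjusted p = 0.039, edgeR). The call of *NOLC1* was lost with library totals in place of TMM (adjusted p = 0.080) and without sgCtrl replicate 2 or 3 or sg*NF2*-1 replicate 1 or 2 (adjusted p from 0.061 to 0.28), and its log2 fold change was 0.15 without sg*NF2*-1 replicate 2. The helicase gene *DDX21* rose by a log2 fold change of 0.42 (adjusted p = 0.00033, edgeR).

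The FPKM values gave a similar count. With limma on log2(FPKM + 1), 39 of the 52 members passed an adjusted p of 0.05 as higher and 0 as lower, against 14.3% and 14.1% of the 13038 genes tested there. The median difference on that scale was 0.44 for the members and -0.01 for all genes. *WDR75*, *NPM1* and *NOLC1* passed in the counts and not in FPKM, with adjusted p-values of 0.058, 0.080 and 0.11 in limma. The FPKM values and the counts come from the same reads and are not independent.

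Other genes of ribosome assembly were also more often higher than lower. Of 112 further assembly genes, all tested, edgeR called 63 (56.3%) higher and 2 lower (adjusted p under 0.05), against 17.7% and 16.6% of all tested genes, with a median log2 fold change of 0.31, against 0.47 for the members. The called genes of that list with the largest rise were *EXOSC5*, a subunit gene of the RNA exosome (1.00), *PNO1*, which encodes a partner of NOB1 (0.92), and *RCL1*, which encodes a processome factor (0.78). *EXOSC5* went from 21.8 ± 0.988 to 43.7 ± 6.40 CPM, *PNO1* from 29.9 ± 3.38 to 56.5 ± 1.49 CPM and *RCL1* from 5.26 ± 0.735 to 9.06 ± 0.418 CPM (SD, n = 3). The called genes that fell were *DDX47*, an RNA helicase gene, by 0.86 on the log2 scale (adjusted p = 0.040, edgeR) and *SHQ1*, which encodes an assembly chaperone of dyskerin, by 0.26 (adjusted p = 0.048, edgeR), and both calls were lost with DESeq2 (adjusted p = 0.10 and 0.076).

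The genes of RNA polymerase I, which makes the precursor, and of the ribosomal proteins, which it is assembled with, had medians above 0. Of 20 polymerase I subunits and factors, edgeR called 8 (40.0%) higher and 1 lower (adjusted p under 0.05), against 17.7% and 16.6% of all tested genes, with a median log2 fold change of 0.26. *CD3EAP* (1.26), *POLR1B* (0.70) and *POLR1E* (0.66) led the rise, and *POLR2L*, a subunit gene shared by the nuclear polymerases, fell by 0.68. Of the 87 cytosolic ribosomal protein genes, 85 were tested, and edgeR called 48 of these (56.5%) higher and 1 lower at the same threshold, with a median of 0.29. At the limits of the study, 11 of the 85 ribosomal protein genes (12.9%) were higher, close to the 9.22% of all tested genes, beside 33 of the 112 further assembly genes (29.5%) and 25 of the 52 members (48.1%).

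**Figure D4:**
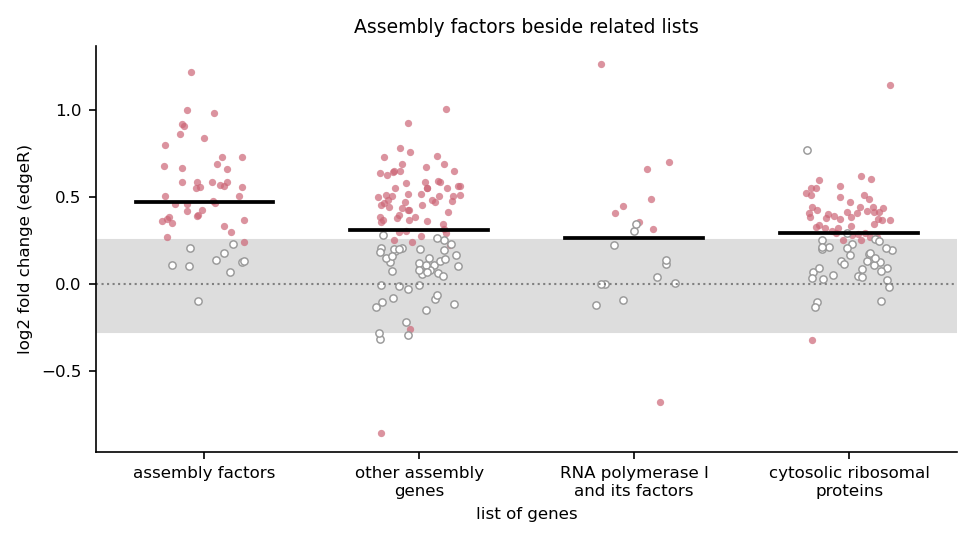
Log2 fold change (vertical axis, edgeR) of the genes of 4 lists; red points passed an adjusted p of 0.05 and open points did not. Black lines are the medians of 0.47, 0.31, 0.26 and 0.29, and the grey band is the interquartile range of all tested genes around their median (dotted).

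The members are spread over 20 chromosomes in the annotation. For 9 members, the start of a protein-coding gene on the opposite strand lies within 1000 bases, pointing away. The median log2 fold change of these 9 members was 0.59 and that of their 8 tested neighbours, which went both ways, was -0.05. Of the 8 neighbours, against 17.7% of all tested genes called higher and 16.6% called lower, 2 were called higher, *HSF1* beside *BOP1* (0.43) and *MED20* beside *BYSL* (0.41), and 2 lower, *PGAM1* beside *RRP12* (-0.56) and *MBTD1* beside *UTP18* (-0.44). *PGAM1* and *RRP12* start 84 bases apart and moved in opposite directions, each with an adjusted p under 0.05 in edgeR.

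Some members carry small nucleolar RNA genes within them. In GENCODE release 29, 24 such genes lie inside 7 members, among them *GNL3* with 6, *NOP56* with 5 and *NOP58* with 4. None of the 24 reached a mean of 10 counts per library, so these data do not measure whether the guide RNAs moved with the host transcripts.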

How the data were processed

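RNA was sequenced in 3 sgCtrl and 3 sg*NF2*-1 libraries of H2452 cells (NEBNext Ultra RNA kit, NovaSeq, paired ends). The authors deposited raw counts per gene, the gene length and FPKM values made from the counts. For the members that length equals all annotated exonic bases, so FPKM levels of different genes also depend on the annotation. Per the labels, the submitters' processing notes name HISAT2, StringTie 1.3.3b, featureCounts 1.5.0-p3 and hg38. The strand setting of the counting is not given in the sources used here, so reads of overlapping and antisense genes may be assigned to either. All 58735 identifiers are in GENCODE release 29. Total counts of 14782423 to 17416463 set the precision of single genes.

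Groups and replicate numbers came from the sample titles. Counts were filtered with filterByExpr (minimum count 10, minimum total 15), normalized by TMM and fitted with edgeR 4.0.16 (R 4.3.3) over 14179 genes, with Benjamini-Hochberg adjustment. The standard errors given with edgeR values were derived as the absolute log2 fold change divided by the square root of the test's F statistic. CPM uses TMM-scaled totals. FPKM was tested with limma 3.58.1 on log2(FPKM + 1) for genes with a mean of at least 0.5. The limits of the study were applied as an unadjusted p under 0.05 with a log2 fold change past 0.5. The alternatives were DESeq2 1.42.0, edgeR scaled by DESeq2 size factors or by totals alone, no filter, 10 counts in every library, protein-coding genes only, a replicate block, each library left out and, for FPKM, a pseudocount of 0.1. The procedures were tested on simulated counts. There edgeR recovered 47 of 98 genes changed by 0.5 on the log2 scale and 79 of 98 changed by 1. It called 12 of 13734 unchanged genes. For a change of 0.5, DESeq2 recovered 44 of 100 genes and limma on FPKM 25 of 87. A member without a call may thus still have changed by that much.

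The members and lists were chosen with earlier results of these data known. Values in every library are given for the 10 called members with the largest change, for core complex proteins, for the nucleolar proteins *NPM1*, *NCL*, *NOLC1* and *TCOF1* and for members singled out after their values were seen (*MDN1*, *NOP2*, *UTP3*, *UTP18*). Of the wider list, the 3 genes called higher with the largest change and both genes called lower are named. Polymerase I genes and neighbours were named after their values were seen. Ribosomal protein genes were matched by symbol pattern. Promoters are RefSeq sequences. 8 members have none in the table.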

Additional observations from a re-analysis of the deposited data

How the results depend on the processing

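The number of members called higher was 42 and lay between 39 and 43 under every alternative run on the counts, and no member was called lower under any of them. At the thresholds of the study it was 25, with a range of 22 to 29, and in FPKM it was 39, with a range of 33 to 39. The median log2 fold change of the members was 0.44 with library totals and 0.46 to 0.52 when each library was left out. Of 676 values of single members under alternatives, 661 kept direction and call, 10 lost the call, 3 gained it and 2 changed sign, the latter being *NOP10* (-0.0029 without sg*NF2*-1 replicate 3, and up to 0.23 without another library) and *GAR1* (-0.020 without sgCtrl replicate 3, up to 0.18), neither called. The number of genes called lower in the wider assembly list, 2, was 0 with DESeq2, 1 without a filter, 1 with the replicate block and 0 to 1 when a library was left out, and the cause was not tested.

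Over all tested genes, deviations of same-numbered libraries correlated at -0.04, 0.07 and 0.06, and not every library correlated best with its own number. On the second principal component of log2 CPM, however, replicate 3 lay apart in both groups. It was at -21.4 in sgCtrl and -9.65 in sg*NF2*-1, and the other libraries had positive values. Whether same-numbered libraries shared a batch was not tested. With the replicate block 43 members were higher, 25 at the thresholds of the study and 39 in FPKM, and *UTP18* passed (adjusted p = 0.034, edgeR). Standard errors of the members ranged from 0.08 to 0.18 on the log2 scale, which limits what 3 libraries a group can resolve.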
